A study of Danio rerio with 4 samples.

Results

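The genes described here encode 3 families of conjugating enzymes in the zebrafish brain: the UDP-glucuronosyltransferases (UGT), the cytosolic sulfotransferases (SULT) and the glutathione transferases (GST). The members were all rows of the authors' gene table whose symbol starts with ugt and a digit up to 8, with sult and a digit up to 6, or with gst and a letter. This rule took 70 of 32520 rows, 31 of them UGT, 20 SULT and 19 GST, under 65 different symbols. RNA from the brain of wild-type zebrafish (Danio rerio, adult and chronically exposed by the series title) was sequenced in 4 libraries. The control library came from fish in 0.1% dimethyl sulfoxide, the solvent, and the others from fish in butylparaben, an alkyl ester of p-hydroxybenzoic acid used as a preservative, at 0.01, 0.1 and 1.0 mg/L. The treatment labels name the solvent for the control only, and neither the sex of the fish nor whether a library pools animals is given in the sources used here. With a single library for each group, values have no replicates, conditions are compared without a test, and every interval covers counting error only. Series of 4 values run from the control through 0.01 and 0.1 to 1.0 mg/L.

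UGTs sit in the endoplasmic reticulum and join glucuronic acid, taken from UDP-glucuronic acid, to lipophilic compounds such as steroids, bilirubin and drugs. SULTs transfer a sulfonate group from the donor PAPS to phenols, steroids and amines, and GSTs join the tripeptide glutathione to electrophiles. In mammals, esterases cleave parabens to p-hydroxybenzoic acid, and both the ester and the acid are excreted largely as glucuronide, sulfate and glycine conjugates. The liver and gut are the best-known sites of these enzymes, while in the brain some members are found in glia, vessels and neurons.

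Total counts per library lay between 9750590 and 11099317, and levels are given as CPM, the counts rescaled to a shared library size. The tissue label was checked against cell markers. Of 18 neuronal markers 17 were measured, with a summed level of 9710.2 to 10602 CPM over the libraries. Liver markers, with 13 of 23 rows measured, summed to 170, 196, 192 and 126 CPM. The liver fatty acid carrier fabp10a had 1.34 to 1.91 CPM, and ttr had 0 counts in every library. The median log2 ratio of the measured liver markers was 0.43, 0.04 and -0.19 at the rising doses. By the size rule given below, 3, 1 and 1 of them were higher, beside 2.17%, 2.43% and 2.67% of all genes. At 1.0 mg/L 1 was lower, beside 2.74% of all genes. Gut markers, with 9 of 17 rows measured, summed to 53.4, 79.1, 46.5 and 41.9 CPM. Their median log2 ratio was 0.24, -0.28 and -0.22 at the rising doses. At 0.01 mg/L 2 of the 9 were higher, beside 2.17% of all genes. At 0.1 mg/L 2 were lower, beside 2.95%. The part of liver and gut cells in the level of any member was not tested. Ovary and oocyte markers separated the control from the exposed libraries: 29 genes summed to 670 CPM in the control but to 14.7, 15.8 and 13.3 CPM in exposed fish. Their part in any difference between a conjugation gene in the control and in the exposed libraries was not tested, and in bulk tissue fewer cells of a type cannot be told apart from less RNA per cell.

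Of the 70 rows, 35 reached a mean of 1 CPM over the 4 libraries and are called measured here, which is 50% of the members against 50.8% of all 32520 genes. These were 14 UGT, 7 SULT and 14 GST rows. A further 23 rows had counts below that limit, and 12 had no count in any library. The rows at 0 counts were 5 of the 6 SULT3 rows, on chromosome 22, together with sult1st7, all 3 UGT5A rows, ugt5d1, ugt5g2 and 1 of 3 rows with the symbol ugt2a7. A count of 0 allows up to 3 counts, or 0.267, 0.318, 0.298 and 0.295 CPM. Closest above the limit was ugt5b4 at a mean of 1.04 CPM, and closest below it was ugt2a4 at 0.919 CPM.

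Per unit of transcript length (TPM, as deposited by the authors), the brain expressed these families very unequally. GSTs held 71.6% of the TPM summed over all members, SULTs 24.5% and UGTs 3.93%. The highest member was gstp1, the pi-class GST, at 165, 153, 146 and 167 TPM. Next came sult4a1, the brain sulfotransferase that is strongly conserved among vertebrates and has no well-established substrate, at 140, 101, 128 and 122 TPM. The rho-class GST gstr, of a class known from fish, had 138, 117, 106 and 107 TPM. These 3 genes and the mu-class genes gstm.1 (mean 62.4 TPM) and gstm.2 (mean 48.7 TPM) carried 71.3% of the summed TPM, and 10 members carried 88.3%.

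Within the UGT family all levels were low, and the highest member held 16.4% of the family's summed TPM, where sult4a1 held 70.2% of that of the SULTs. That UGT was ugt1b5, with 3.85, 4.24, 5.92 and 4.41 TPM. It was followed by ugt8, the enzyme that adds galactose to ceramide for myelin lipids, at a mean of 2.61 TPM, and by ugt5g1 and ugt5f1 at means of 2.47 and 2.41 TPM. Of these, ugt5g1 had 63, 37, 58 and 41 counts, or 5.61, 3.92, 5.75 and 4.03 CPM, with intervals against the control that include 1 at each dose. All 31 UGT rows together came to a mean of 28.0 TPM, less than sult2st3 and sult2st1, both of the class known for steroid sulfation, added together at 22.1 and 8.40 TPM.

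**Figure D1:**
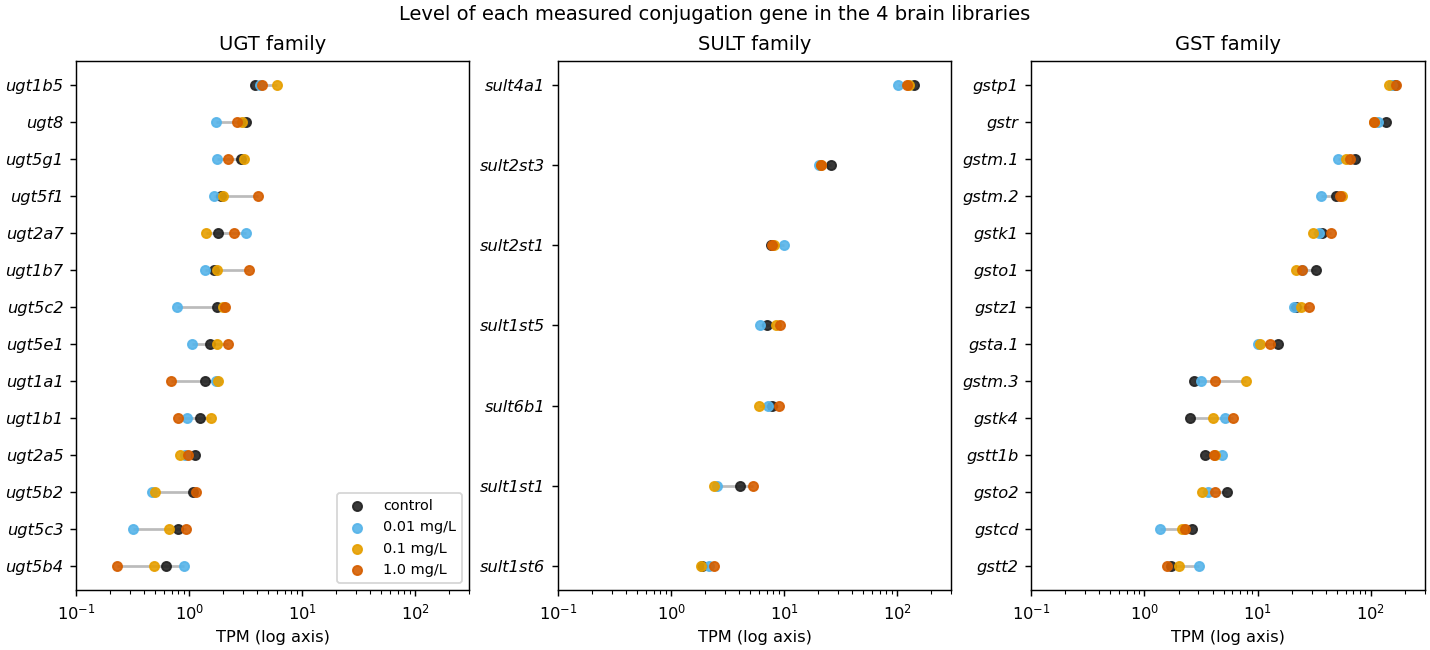
TPM (log axis) of the 14 UGT, 7 SULT and 14 GST rows measured, 1 point per library, with a grey line from the lowest to the highest library of each gene. The libraries of one gene lie close together only beside the full range of genes, as for sult4a1 at 101 to 140 TPM. Low UGT rows of similar level overlap: ugt5b4 spans 0.23 to 0.90 TPM, which covers the mean of ugt5c3 (0.68 TPM).

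A member was called higher or lower than the control when its log2 ratio of (CPM + 0.5) had a size of 1 or more while 1 lay outside the exact 95% interval of the count ratio. At 0.01 mg/L 1 of 35 measured members was higher (2.86%) and 0 lower, where 2.17% of 16524 genes were higher and 2.4% lower. At 0.1 mg/L 1 of 35 was higher and 0 lower, where 2.43% of genes were higher and 2.95% lower. At 1.0 mg/L 1 of 35 was higher and 3 were lower (8.57%), where 2.67% of genes were higher and 2.74% lower. Among these 3, ugt5b4 and ugt1b1, at means of 1.04 and 1.41 CPM, had 0.295 and 0.590 CPM at 1.0 mg/L. Both passed the limit for measured genes only through the libraries where they are high. Their calls therefore give no support to the counts. Counting each gene once, 5 of 35 members (14.3%) were called at some dose, beside 9.84% of all genes. That count includes ugt1b1 and ugt5b4, so no reading against all genes is drawn from it. All 5, ugt1b1 and ugt5b4 among them, had a mean under 5 CPM. Calls were more frequent among genes of low count: between 1 and 2 CPM 12.8%, 14.4% and 14.3% of genes were called by rising dose, against 0.725%, 0.757% and 0.886% of genes at 20 CPM or more. None of the 8 members at 20 CPM or more was called at any dose. The median log2 ratio over the 35 members was -0.06, -0.19 and -0.02 at the rising doses, where the median of all genes was -0.01, 0.00 and 0.00. The 3 comparisons share the 1 control library.

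**Figure D2:**
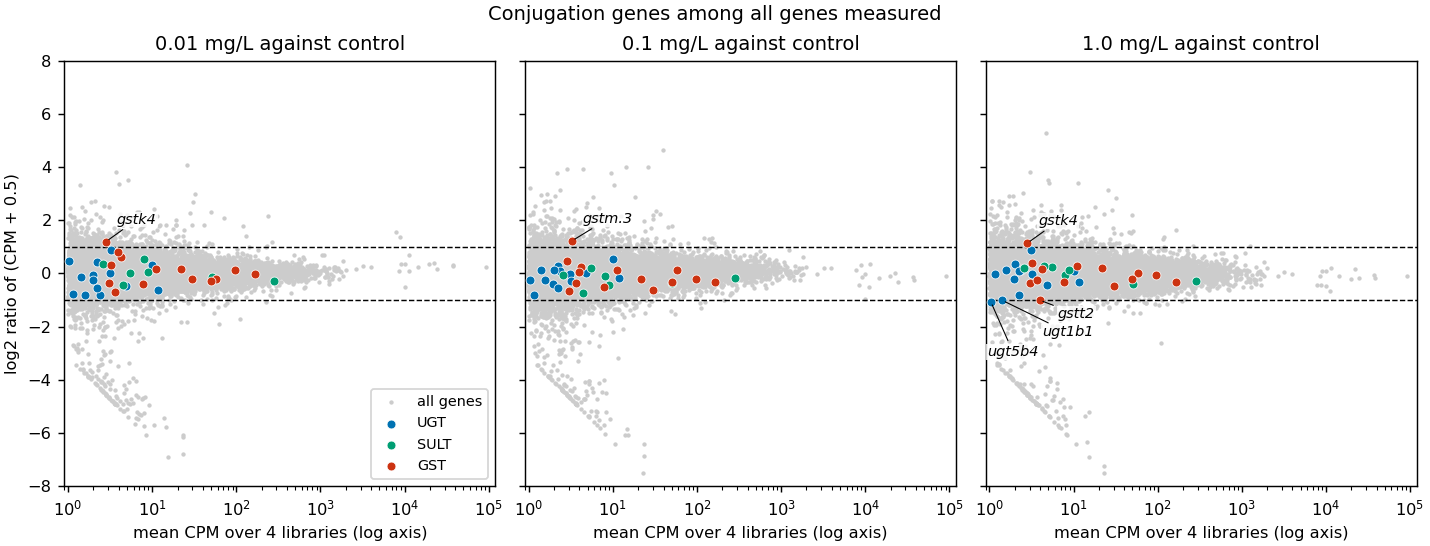
Log2 ratio of (CPM + 0.5) to the control at each dose against mean CPM over the 4 libraries (log axis), with all 16524 measured genes in grey and the 35 members coloured by family. Members lie inside the grey cloud, and the 5 named ones beyond the dashed lines at a log2 ratio of 1 in size sit at its low-count end.

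Among the GSTs, gstk4 was the member called at more than 1 dose. It encodes a kappa-class enzyme, a class found in mitochondria and peroxisomes, and lies on chromosome 16 (ENSDARG00000092052, 31982149 to 32008281 on the minus strand). It had 16, 37, 22 and 38 counts, or 1.43, 3.92, 2.18 and 3.74 CPM. All 3 exposed libraries lay above the control, by 2.75-fold (interval 1.49 to 5.29), 1.53-fold (0.768 to 3.12) and 2.62-fold (1.43 to 5.04). A second row with the symbol gstk4 (ENSDARG00000093119) overlaps it on the same strand over 9229 bases and had 5, 9, 9 and 13 counts, below the limit for measured genes. Reads of such overlapping rows are shared out by estimation, so both rows were also summed: the sum had 21, 46, 31 and 51 counts, 2.6-fold (1.52 to 4.59), 1.64-fold (0.915 to 3.01) and 2.68-fold (1.58 to 4.69). The called row held 16 of the 21 control counts, so the sum largely repeats that row. In TPM the log2 ratio of the called gstk4 row at 0.01 mg/L was 0.89, short of a call. The median log2 ratio of all genes in TPM at that dose was -0.19. The neighbouring kappa gene gstk1, at a mean of 36.9 TPM against 4.45 TPM for gstk4, had 21.1, 23.5, 18.1 and 24.5 CPM, and its intervals against the control include 1 at each dose.

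The mu-class gene gstm.3 was called higher at 0.1 mg/L. It is the third and least expressed of a row of mu genes on chromosome 8 (ENSDARG00000088116, 25302172 to 25307014), with 23, 25, 55 and 29 counts. The 0.1 mg/L library stood above all the others, 2.66-fold over the control (interval 1.61 to 4.54). Its neighbour gstm.2 was also highest there but by little, at 58.0, 49.5, 64.1 and 59.4 CPM (1.1-fold at 0.1 mg/L, interval 0.989 to 1.23). The remaining neighbour gstm.1 went the other way, at 57.8, 46.9, 46.6 and 49.6 CPM, so the 3 genes did not move as a block. Summed, the mu genes had 118, 99.1, 116 and 112 CPM.

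The theta-class gene gstt2 (ENSDARG00000095464, chromosome 5, 10046643 to 10056341) was highest at the lowest dose and lowest at the highest dose. It had 41, 64, 38 and 16 counts, or 3.65, 6.78, 3.77 and 1.57 CPM. The 0.01 mg/L library lay 1.86-fold above the control (interval 1.23 to 2.82), short of the call on the log2 scale at 0.81. The 1.0 mg/L library was called lower with a log2 ratio of -1.0, at the edge of the rule, and a ratio of 0.431 (0.226 to 0.785), and stood 4.31-fold below the 0.01 mg/L library (interval 2.46 to 7.98). In the authors' TPM, which also uses transcript length, the same gene had 1.71, 3.04, 2.03 and 1.57 TPM, and its log2 ratio at 1.0 mg/L came to -0.09, without a call; with library totals in place of TMM scaling it was -0.97, also without one. The kinase gene chek2 overlaps gstt2 on the opposite strand, with 33, 16, 14 and 14 counts. The library kit keeps strand, but whether the counting used it is not stated in the labels. As for gstt1b, the other measured theta gene, it was likewise highest at 0.01 mg/L, at 5.50 CPM against 3.38 CPM in the control (1.63-fold, interval 1.05 to 2.54).

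One GST below the limit for measured genes is named because of its pattern, after its values were seen. The second pi-class gene, gstp2 (ENSDARG00000103019), lies beside gstp1 on chromosome 14 and had 1, 7, 10 and 9 counts. Its ratios of 8.32 (interval 1.07 to 375), 11.1 (1.58 to 483) and 9.94 (1.38 to 436) passed the size rule, but the intervals are very wide. The abundant gstp1 next to it had 98.2, 107, 85.2 and 95.4 CPM.

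The abundant GSTs differed from the control by less than 2-fold, yet by more than counting error at some doses. Among GSTs at 20 CPM or more the ratio farthest from 1 was that of gsto1, an omega-class enzyme that reduces dehydroascorbate, with 37.1, 32.1, 23.8 and 26.5 CPM. All 3 exposed libraries were below the control, and at 0.1 mg/L the ratio was 0.641 (interval 0.544 to 0.753). The neighbouring omega gene gsto2 had its libraries in the same order, with 3.92, 2.96, 2.28 and 2.95 CPM. For gstr the control and the 0.01 mg/L library differed by less than counting error, at 184 and 181 CPM, and the 0.1 and 1.0 mg/L libraries were lower at 147 and 149 CPM, ratios of 0.796 (0.744 to 0.851) and 0.808 (0.756 to 0.864). The alpha-class gene gsta.1 had 9.62, 7.20, 6.55 and 7.57 CPM. By contrast the zeta-class gene gstz1, which acts in tyrosine breakdown, had 9.98, 11.1, 11.1 and 12.3 CPM, with intervals that include 1. Summed over the family, GST levels in CPM were 0.977 (0.939 to 1.02), 0.858 (0.824 to 0.893) and 0.899 (0.864 to 0.935) of the control at the rising doses. In TPM these ratios were 0.857, 0.876 and 0.962. TPM carries no TMM scaling, and the median log2 ratio of all genes in TPM was -0.19, 0.05 and 0.08. A shift shared by all genes therefore enters the TPM ratios. Without gstr the summed GST level in CPM was 0.895 (0.851 to 0.940) at 0.1 mg/L. At 1.0 mg/L it was 0.953 (0.907 to 1.0006), so the lower family value there rests in part on gstr.

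**Figure D3:**
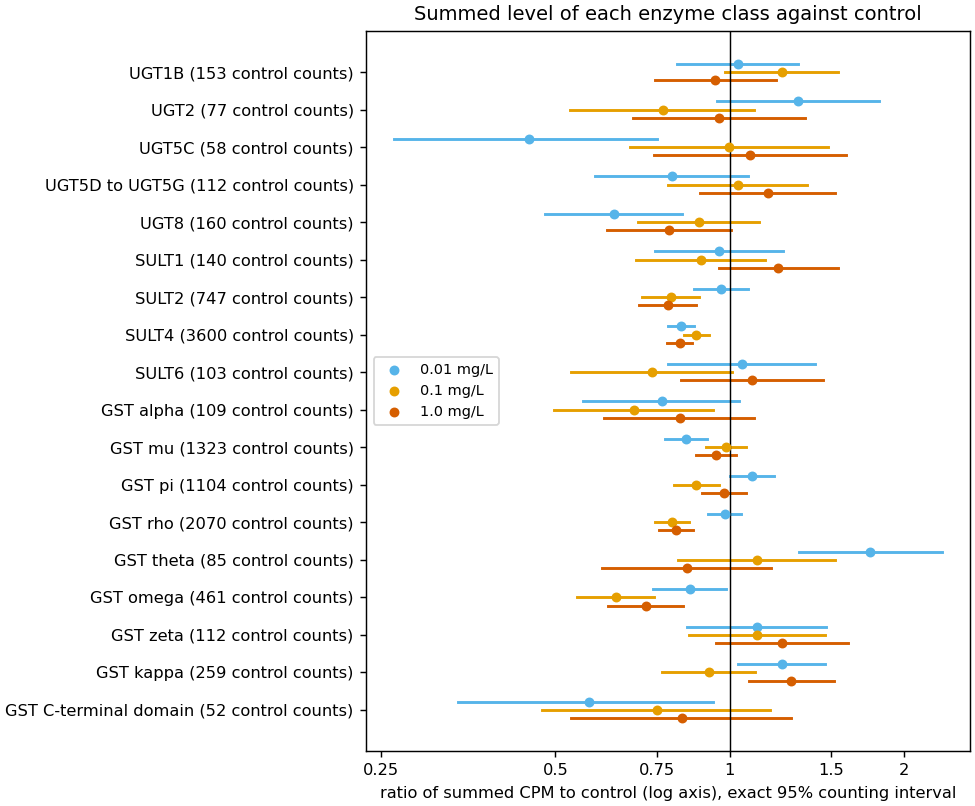
Summed CPM of each enzyme class as a ratio to the control (log axis) at 0.01, 0.1 and 1.0 mg/L, with exact 95% counting intervals, for classes with at least 50 control counts. The whole interval lies below 1 at all 3 doses for GST omega and SULT4, and at 0.1 and 1.0 mg/L for GST rho and SULT2. For GST kappa it lies above 1 at 0.01 mg/L (1.03 to 1.46) and 1.0 mg/L (1.08 to 1.52). UGT5C (0.451) and GST theta (1.75) stand off at 0.01 mg/L.

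No sulfotransferase was called at any dose. The best measured, sult4a1 (ENSDARG00000101967, chromosome 4, 8797197 to 8810740), had 3600, 2496, 2834 and 2675 counts, or 321, 264, 281 and 263 CPM. All 3 exposed libraries were below the control, at ratios of 0.824 (0.783 to 0.867), 0.876 (0.834 to 0.921) and 0.820 (0.780 to 0.863). Its log2 ratios were -0.28, -0.19 and -0.29, while the medians of the neuronal markers, from the cells that sult4a1 is best known from, were -0.01, 0.05 and -0.08. The 15 radial glia markers had medians of -0.27, -0.28 and -0.10 and sums of 4276, 3376, 3493 and 3924 CPM, and the median of the 11 measured blood markers was 0.06, -0.17 and -0.62. The part of these cell types in the lower SULT and GST levels was not tested. The steroid-class gene sult2st3 was the member whose level went down at every step, at 59.0, 53.4, 45.8 and 44.8 CPM, and was 0.760 of the control at 1.0 mg/L (0.673 to 0.858). Its first and last steps lay within counting error, at ratios of 0.905 (0.804 to 1.02) and 0.979 (0.858 to 1.12). The deposited TPM of sult2st3, at 25.9, 20.5, 21.0 and 20.9, did not fall at every step. TPM carries no TMM scaling, and the median log2 ratio of all genes in TPM was -0.19, 0.05 and 0.08. Its class mate sult2st1 stood highest at 0.01 mg/L, at 10.9 CPM against 7.30, 6.74 and 6.98 CPM in the control and at the higher doses.

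The phenol-type SULT1 genes were low in this tissue. Of 8 rows 3 were measured: sult1st5 at 4.99, 5.08, 5.85 and 6.0 CPM, sult1st1 at 5.08, 3.60, 2.88 and 6.2 CPM, and sult1st6 at 2.32, 3.07, 2.18 and 2.75 CPM. The first was the member whose level went up at every step, by amounts within its intervals. For sult1st1 the libraries at 0.01 and 0.1 mg/L were below the other pair, with a ratio of 0.566 at 0.1 mg/L (0.349 to 0.901). Likewise sult6b1 was lowest at 0.1 mg/L, at 6.74 CPM against 9.17 CPM in the control, with an interval that includes 1. The summed SULT level was 0.858 (0.820 to 0.897), 0.860 (0.823 to 0.899) and 0.832 (0.796 to 0.870) of the control. Without sult4a1 it was 0.980 (0.893 to 1.08), 0.800 (0.725 to 0.881) and 0.874 (0.795 to 0.961), so that the CPM value at 0.01 mg/L rests on sult4a1. In TPM the summed SULT level, with sult4a1, was 0.769, 0.904 and 0.908 of the control, outside the CPM intervals at each dose. TPM carries no TMM scaling, and the median log2 ratio of all genes in TPM was -0.19, 0.05 and 0.08. A shift shared by all genes therefore enters these TPM ratios.

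Of the UGTs, ugt1b1 and ugt5b4 were called lower at 1.0 mg/L, both from few counts and both inside clusters of overlapping rows. On the plus strand of chromosome 11 the 7 ugt1b rows form an overlapping cluster in which 5 rows share the end 30329055, and ugt1b1 (ENSDARG00000097491, 30321116 to 30329055) lies wholly inside 5 others. It had 19, 14, 19 and 6 counts, a ratio of 0.349 at the last (0.114 to 0.908). The whole cluster had 153, 133, 169 and 131 counts, a ratio of 0.945 at 1.0 mg/L (0.743 to 1.2), and its leading row ugt1b5 had 93, 99, 124 and 91 counts. At 0.1 mg/L the ratio of ugt1b5 was 1.48 (1.13 to 1.96) and that of the whole cluster 1.23 (0.982 to 1.54). With 19 of 153 control counts, ugt1b1 could move the cluster sum only slightly, so the sum does not check its call. In TPM the log2 ratio of ugt1b1 was -0.44, without a call. With library totals in place of TMM scaling it was -0.99, also without one.

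The 5 ugt5b rows on chromosome 1 also overlap, though ugt5b5 does so only over 564 bases of a ugt5b2 row and not with ugt5b4. Within them ugt5b4 (ENSDARG00000091916, 9630996 to 9652696 on the minus strand) had 13, 17, 9 and 3 counts, a ratio of 0.255 at the last (0.0466 to 0.927). All 5 rows together had 35, 28, 27 and 22 counts, and the ratio at 1.0 mg/L was 0.694 (0.388 to 1.22). With 13 of the 35 control counts in ugt5b4, the sum shows its change only in part. In TPM the log2 ratio of ugt5b4 was -0.62, short of a call. The gene elfn1b overlaps ugt5b4 on the opposite strand, with 92, 68, 47 and 57 counts.

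**Figure D4:**
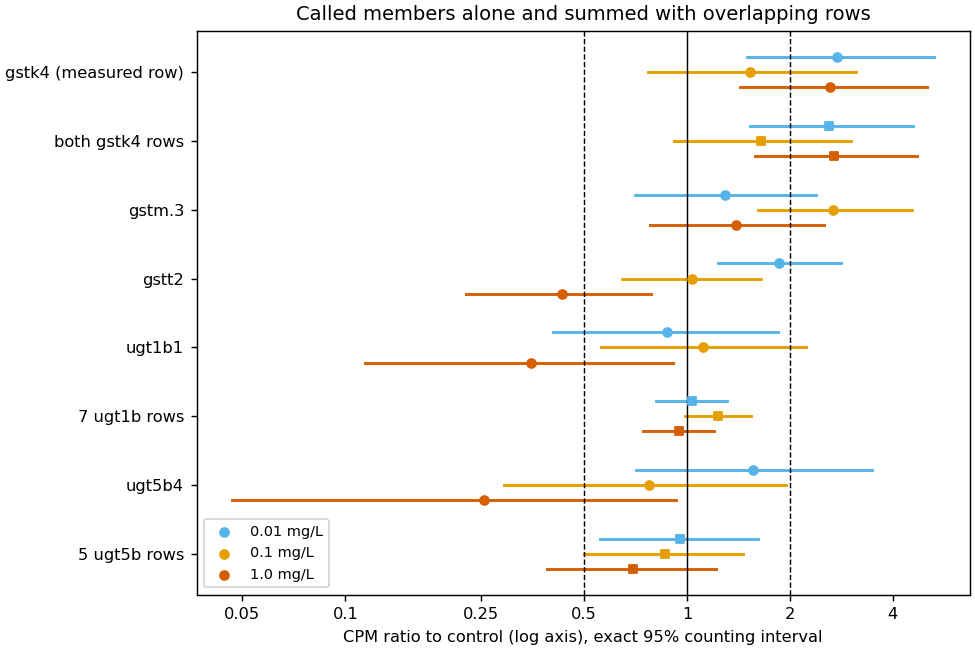
CPM ratio to the control (log axis) with exact 95% counting intervals, with dashed lines at ratios of 0.5 and 2. Circles mark the 5 members called at some dose, and squares mark the sums over all gstk4, ugt1b and ugt5b rows. Both gstk4 rows summed have a ratio of 2.6 at 0.01 mg/L, and the ugt1b and ugt5b sums have 0.945 and 0.694 at 1.0 mg/L. The called row held 16 of 21 control counts in the gstk4 sum, 19 of 153 in ugt1b and 13 of 35 in ugt5b. The sums therefore follow the called row to unlike degrees and do not check the calls.

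Further UGT patterns fell short of a call. The ugt5c genes, which stand side by side without overlap on chromosome 18 (40460130 to 40477865), were each lowest at 0.01 mg/L. Their counts from the control to 1.0 mg/L were 8, 2, 9 and 7 in ugt5c1, 29, 12, 28 and 29 in ugt5c2, and 21, 8, 15 and 21 in ugt5c3. The sum stood at 0.451 of the control at 0.01 mg/L (0.263 to 0.748) and near 1 at the other doses. A single library stood out as well in ugt5f1, at 5.02 CPM at 1.0 mg/L against 2.49, 2.54 and 2.48 CPM (2.01-fold over the control, interval 1.24 to 3.31), and in the measured ugt2a7 row (ENSDARG00000091624), at 5.40 CPM at 0.01 mg/L against 2.67 CPM in the control (2.02-fold, interval 1.26 to 3.29). The bilirubin-type gene ugt1a1 was lowest at 1.0 mg/L, at 0.983 CPM against 2.14 CPM in the control, and stood 3.12-fold below the 0.01 mg/L library (interval 1.48 to 7.18).

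The myelin lipid enzyme ugt8 (ENSDARG00000037455) was the most abundant UGT by counts and was below the control in every exposed library. It had 160, 85, 127 and 114 counts, or 14.3, 9.0, 12.6 and 11.2 CPM, and the ratio at 0.01 mg/L was 0.631 (0.480 to 0.826). The oligodendrocyte markers as a list did not share that difference. At 0.01 mg/L ugt8 had a log2 ratio of -0.64, while those of the 17 markers lay between -0.27 for cnp and 1.91 for gal3st1b. Among them fa2h, which hydroxylates the fatty acids of the same lipids, stood at 113 CPM against 73.0 CPM in the control, and the myelin gene mbpa had a log2 ratio of 0.70. Both were picked after their values were seen and lie on the higher side of a list whose median is near 0. The part of oligodendrocytes in the lower ugt8 level was not tested. The median of the 17 oligodendrocyte markers was 0.04, 0.08 and -0.02 on the log2 scale at the rising doses. Their summed level was 10876, 16687, 13499 and 12098 CPM, highest in the library where ugt8 was lowest. By the size rule 1 marker was higher at 0.01 mg/L and 1 at 1.0 mg/L, beside 2.17% and 2.67% of all genes. Summed over the family, UGT levels in CPM were 0.877 (0.776 to 0.992), 1.01 (0.895 to 1.13) and 0.926 (0.822 to 1.04) of the control, and without ugt8 the value at 0.01 mg/L was 0.963. In TPM the direction at 1.0 mg/L was the opposite, with a ratio of 1.12, where the median log2 ratio of all genes was 0.08.

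**Figure D5:**
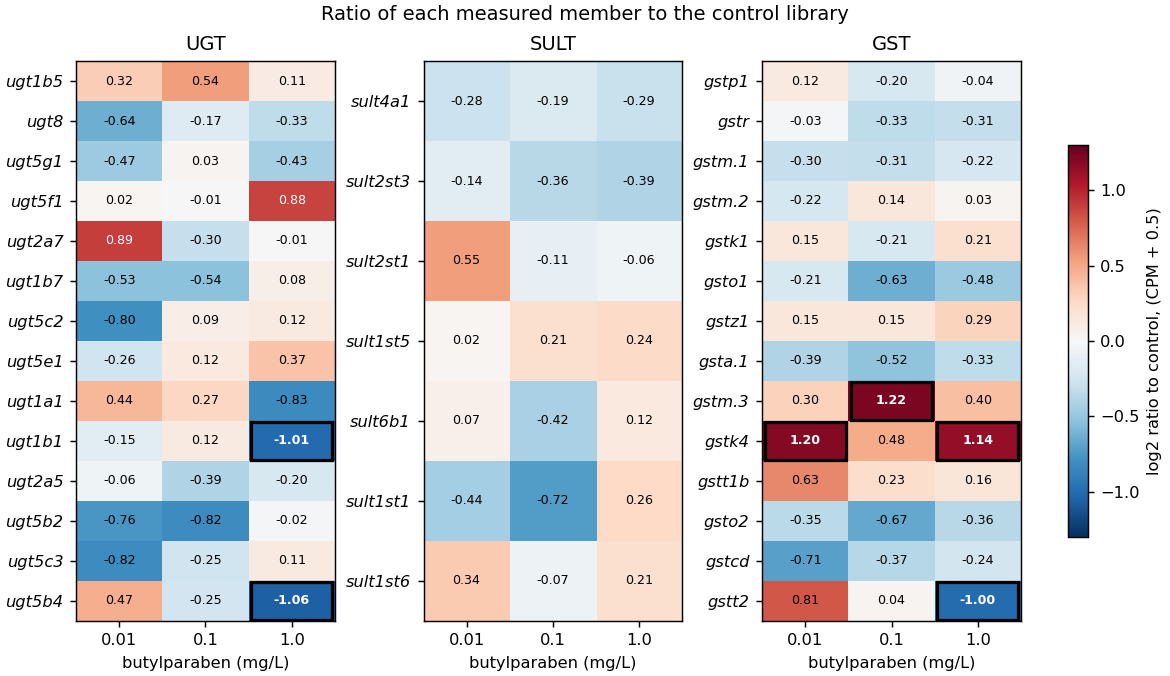
Log2 ratio of (CPM + 0.5) to the control for the 35 measured members, by family and in order of mean TPM, at 0.01, 0.1 and 1.0 mg/L; boxes mark the 6 calls of the size rule. The abundant SULT and GST genes at the top of their panels hold pale values, such as -0.03, -0.33 and -0.31 for gstr, and no gene is boxed at all 3 doses.

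Smaller differences were counted by the interval alone, whatever the size of the ratio. At 0.01 mg/L the interval lay above 1 for 5 of 35 members (14.3%, with 14.3% of all genes) and below 1 for 6 (17.1%, with 15.3% of genes). At 0.1 mg/L these numbers were 2 above (5.71%, with 19.2% of genes) and 9 below (25.7%, with 16.8%). At 1.0 mg/L they were again 2 above (5.71%, with 18.7% of genes) and 9 below (25.7%, with 18.7%). The genes sult4a1, sult2st3, gstr, gsto1 and gstm.1 were below at both of the higher doses. The control was the highest library for 11 members and the rising doses for 9, 5 and 10, where the shares of all genes were 27.6%, 21%, 25.5% and 26%. The 0.1 mg/L library was the lowest of the 4 for 16 of 35 members (45.7%), where it was the lowest for 23.4% of all genes. The control was the lowest for 6 members, the 0.01 mg/L library for 7 and the 1.0 mg/L library for 6, where these were the lowest for 27.2%, 23.9% and 25.5% of genes. With levels in TPM the 0.1 mg/L library was the lowest for 10 of 35 members (28.6%) and for 14.5% of genes. Few members were ordered by dose: 1 went up at every step and 1 went down (2.86% each), beside 6.09% and 5.82% of all genes.

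Between exposed libraries the calls again fell on UGT and GST rows of low count. From 0.01 to 0.1 mg/L 0 of 35 members were higher and 1 lower (ugt2a7), where 1.71% of genes were higher and 1.67% lower. From 0.01 to 1.0 mg/L 0 were higher and 3 lower (gstt2, ugt1a1 and ugt5b4), where the shares of all genes were 1.84% and 1.58%. From 0.1 to 1.0 mg/L 0 were higher and 3 lower (gstt2, ugt1a1 and ugt1b1), where they were 1.89% and 1.35%. Those members were called on 3 to 64 counts per library. The calls on ugt5b4, ugt1b1 and ugt1a1 give no support to these counts. At 1.0 mg/L these genes had 0.295, 0.590 and 0.983 CPM, so they are measured only through the libraries where they are high.

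The donors and partners of the conjugating enzymes were examined as lists, whose counts stand beside 2.17%, 2.43% and 2.67% of all genes called higher and 2.4%, 2.95% and 2.74% called lower at the rising doses. UDP-glucuronate supply had 0 of 3 measured genes called, and ugdh, which makes UDP-glucuronic acid, had 5.79, 6.35, 6.74 and 6.10 CPM. In sulfate donor supply, 1 of 10 genes was higher at each dose and 0 lower. At 0.01 mg/L this was papss2a, a PAPS synthase, at 3.60 CPM against 1.43 CPM, and at 0.1 and 1.0 mg/L it was the sulfate carrier slc13a1, with 1, 2, 15 and 23 counts. With a mean of 1.01 CPM, slc13a1 passed the limit for measured genes only through the libraries where it is high, so its calls give no support to the count. Glutathione supply had 0 of 14 called, with gclc, the enzyme of its first step, at 62.2, 63.3, 74.6 and 63.3 CPM. The glutathione synthetase gene gss, named after its values were seen and just under the limit for measured genes, had 25, 8, 4 and 3 counts.

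The remaining lists held few calls. Membrane and prostaglandin GST relatives (8 measured), esterases and epoxide hydrolases (9) and conjugate transporters (17) had 0 called at every dose. Transporter medians were 0.20, 0.28 and 0.17 on the log2 scale, where all genes had -0.01, 0.00 and 0.00, with the exporter abcc5 at 533, 632, 642 and 628 CPM. Of 4 deconjugating hydrolases, 1 was lower at 1.0 mg/L, the sulfatide-cleaving arylsulfatase gene arsa, at 1.18 CPM against 3.03 CPM. Of 12 other conjugating enzymes, 2 were higher at 1.0 mg/L, aanat2 (5.9 CPM against 1.07 CPM) and asmt (3.44 CPM against 0.534 CPM), which make melatonin in the pineal gland. With 0.534 CPM in the control, asmt passed the limit for measured genes only through libraries where it is higher, so its call gives no support to the count.

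Regulators whose vertebrate targets include conjugation genes were set beside the members. In the aryl hydrocarbon receptor list 1, 3 and 2 of 12 genes were higher at the rising doses and 0 lower, beside 2.17%, 2.43% and 2.67% of all genes higher. Its marker target cyp1a had 16.8, 14.1, 39.7 and 24.5 CPM, cyp1d1 of the same enzyme family had 2.76, 4.34, 8.43 and 6.1 CPM, and the receptor's repressor ahrra had 8, 20, 43 and 22 counts. In the control ahrra lay under the limit of 1 CPM, so any call on it gives no support to these counts. In the Nrf2 list, whose known targets in vertebrates include GSTs, 1 of 17 genes was lower at 0.1 mg/L, nqo1, at 1.98 CPM against 6.68 CPM, beside 2.95% of all genes. At 1.0 mg/L 1 was higher, prdx1, at 69.2 CPM against 33.4 CPM, beside 2.67% of all genes. The PXR list had 1 of 8 genes higher at 0.1 mg/L, cyp2k18, at 3.07 CPM against 1.25 CPM, beside 2.43% of all genes.

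The authors' deposited table gives its own fold changes and p-values. With a mark defined by a p-value below 0.05 and a log2 fold change of size 1 or more, the authors' deposited table marks 2 members up and 0 down at 0.01 mg/L (gstk4 and ugt2a7), with 549 up and 740 down among all 32520 genes. At 0.1 mg/L the authors' deposited table marks 2 up and 0 down (gstm.3 and gstp2), with 575 and 818 among all genes. At 1.0 mg/L the marks in the authors' deposited table are 2 up (gstk4 and gstp2) and 1 down (gstt2), with 650 and 746 among all genes. By the q-value in the authors' deposited table, 0 members pass 0.05 at any dose. The test behind these marks is not given in the sources used here, and with 1 library per group it measures no spread between fish.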

How the data were processed

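RNA of zebrafish brain was measured in 4 libraries, 1 per group. Per the labels' protocols, libraries were made with a stranded mRNA kit for 151 bp paired ends. The submitters' processing notes name RSEM 1.3.1, STAR 2.7.1a, cutadapt 2.8 and the zebrafish build GRCz11, with no role for each. The authors deposited an expected count (estimated count), an RPKM and a TPM value per gene and library, and a p-value, a q-value and a log2 fold change of each dose, per the file headers. The counts are whole numbers as deposited. Because RSEM divides ambiguous reads by estimation, levels of overlapping or closely related paralogs are uncertain; whether counting used strand is not given in the sources used here.

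From the counts, CPM were computed with TMM factors (edgeR 4.0.16, R 4.3.3) of 1.01, 0.931, 1.02 and 1.04 from the control to 1.0 mg/L. A mean of 1 CPM or more kept 16524 genes. Ratios are log2(CPM + 0.5), which understates low genes; folds are ratios of CPM. Intervals are exact (95%, Clopper-Pearson, given the summed counts of the pair) and, like the floor of 3 counts, cover counting error only. The size rule was tested on simulated counts that held counting error only, which says nothing of the spread between fish. Python 3.11.15 was used with scipy 1.17.1, pandas 2.3.3, matplotlib 3.10.9 and numpy 2.4.6. Alternatives were DESeq2 1.42.0 size factors, library totals, other filters and pseudocounts, TPM, and leaving out mitochondrial genes. Of the 70 members, those past the size rule and the 4 of highest mean TPM per family are given in full. From each list, at most 4 genes past the size rule are named; ugdh, gclc, abcc5, fa2h, mbpa, cnp, gal3st1b and the remaining members given with values were added after these were seen. Members, lists and rules were chosen with earlier results of these data known. No sequence is shown.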

Additional observations from a re-analysis of the deposited data

How the results depend on the processing

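All comparisons rest on 1 library per group, so the spread between fish is unmeasured. No paired analysis was possible because each group holds a single library. The number of members called higher at 0.01 mg/L was 1 and became 2 with no filter beyond 1 count (gstk4 and gstp2), and 0 with a mean of at least 5 CPM, with a pseudocount of 2 CPM and in the authors' TPM. At 0.1 mg/L it was 1 and became 3 with no filter (gstm.3, gstp2 and ugt5b1), and 0 with a mean of at least 5 CPM and with a pseudocount of 2 CPM. At 1.0 mg/L it was 1 and became 2 with no filter, and 0 under the same pair of settings. The number lower at 1.0 mg/L was 3 and became 1 with library totals (ugt5b4), and 0 with a mean of at least 5 CPM, with a pseudocount of 2 CPM and in TPM; a pseudocount of 0.1 CPM gave 4, adding ugt1a1. A mean of at least 5 CPM leaves 15 members, without any of those called. DESeq2 size factors and leaving out mitochondrially encoded genes gave the counts of the TMM scaling at every dose. At the dose of its call, no called member's log2 ratio changed sign under the 7 alternatives that keep these genes; none of them reaches a mean of 5 CPM. Library totals moved the median of all genes at 0.01 mg/L to -0.12 and TPM to -0.19. The share of members lowest at 0.1 mg/L, an alternative set added after seeing the data, ranged from 10 to 16 of 35 over scalings and units.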

Other observations

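The gene nat8l, the enzyme that makes N-acetylaspartate in neurons, sat in the list of other conjugating enzymes and held most of its summed CPM. It had 1518, 2550, 2431 and 2546 counts from the control to 1.0 mg/L, or 135, 270, 241 and 250 CPM, and its log2 ratios of 0.99, 0.83 and 0.89 fell just short of the size rule at each dose. It was named after its values were seen.

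The breast cancer resistance protein homologue abcg2a, an exporter of sulfate conjugates in mammals, went up at every dose step, at 16.0, 20.9, 22.1 and 26.9 CPM from the control to 1.0 mg/L (1.68-fold at the last, interval 1.39 to 2.04), and so did the carboxylesterase gene ces2a, at 4.63, 6.35, 6.45 and 7.97 CPM (1.72-fold, interval 1.2 to 2.49). Both were picked after their values were seen, and 6.09% of all genes went up at every step.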
